A study of Mus musculus with 12 samples.

Results

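Egr1, the best known of the immediate early genes, was described together with 7 others, Egr2, Egr3, Ier2, Ier3, Ier5, Nr4a1 and Srf, in MC38 cells, a mouse colorectal cancer line. These 8 genes were taken by name from the 54532 genes of the deposited table. Egr1 comes first because it was chosen by its measured FPKM over the 4 groups, where drug and radiation effects were less than additive, and the others were selected on their names as genes of the same class. Its own values are therefore given as a description without a test, and so is the additivity of every gene in the set.

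Cultures were given nintedanib at 3 µM, X-rays at 8 Gy, both together (the combination) or neither (the untreated control), with 3 libraries in each of the 4 groups. The labels give a time of 24 hours for each treated group and no time for the control. Nintedanib is a tyrosine kinase inhibitor that blocks PDGF, FGF and VEGF receptors. All groups were the same unmodified line in culture, so no host cells were present, and the experiment was repeated independently 3 times per the labels.

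Libraries held 16103528 to 18196615 fragments. The defining epithelial and colonic markers were close to absent: Epcam had no fragment in any of the 12 libraries, and Krt8, Krt18, Krt20, Cdx2 and Vil1 reached at most 0.601, 0.0838, 0.0317, 0.0473 and 0.139 FPKM (fragment counts divided by gene model length and by sequencing depth). Cdh1 was at 4.12 to 8.73 FPKM and the mesenchymal gene Vim at 498 to 618 FPKM. Ptprc, Pecam1 and Cdh5, markers of leukocytes and endothelium, did not exceed 0.0292, 0.447 and 0.227 FPKM. Fibroblast genes were low, with Col1a1 at 1.73 to 2.84 FPKM and Dcn at 2.25 to 5.41 FPKM.

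Immediate early genes are transcribed within minutes of a growth factor or stress signal, without new protein synthesis, and their transcripts are usually short-lived. Growth factor receptors signal through RAS, RAF, MEK and ERK to ternary complex factors such as ELK1, which sit with the serum response factor (SRF) on CArG boxes, a CC, a run of A and T, and a GG. CREB and ATF proteins act on the cAMP response element (CRE). In tumour cells with active receptor or RAS signalling, some of these genes also have a steady level. The values here come from a single time per group, given as 24 hours for the treatments, and no time course was measured.

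The genes differ in the promoter elements that the known regulators use, and so the windows upstream of the start sites are shown for 3 of them. Sequences are from RefSeq (GRCm38.p6), read 5′ to 3′ on the gene's strand, with capitals marking CArG boxes and the short CRE motif TGACG or its complement CGTCA, searched on both strands. RefSeq windows were matched for 5 of the 8 genes, Egr2, Ier3, Ier5, Nr4a1 and Srf. Egr2 has several annotated starts, and the one printed, at 67537869, is clear of untranslated stretches and has the most matches.
Egr2 promoter, chr10:67537619-67537868, plus strand: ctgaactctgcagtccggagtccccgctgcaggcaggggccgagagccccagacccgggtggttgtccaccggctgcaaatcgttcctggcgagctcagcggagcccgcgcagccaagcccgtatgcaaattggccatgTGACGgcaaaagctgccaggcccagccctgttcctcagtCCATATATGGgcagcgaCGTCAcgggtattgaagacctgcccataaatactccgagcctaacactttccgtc
Nr4a1 promoter, chr15:101266596-101266845, plus strand: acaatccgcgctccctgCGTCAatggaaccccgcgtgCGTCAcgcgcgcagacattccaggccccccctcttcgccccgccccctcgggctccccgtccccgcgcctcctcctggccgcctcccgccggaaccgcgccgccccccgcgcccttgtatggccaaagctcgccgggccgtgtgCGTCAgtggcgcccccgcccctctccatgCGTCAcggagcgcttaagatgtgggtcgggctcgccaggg
Srf promoter, chr17:46556176-46556412, minus strand: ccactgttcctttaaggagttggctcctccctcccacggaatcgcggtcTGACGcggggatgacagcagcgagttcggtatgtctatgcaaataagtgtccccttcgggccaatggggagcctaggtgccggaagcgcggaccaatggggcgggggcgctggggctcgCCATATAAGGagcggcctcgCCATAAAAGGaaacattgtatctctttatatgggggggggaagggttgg
The Srf window leaves out the bases nearest to the start, where the annotation also has an untranslated stretch.

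The Srf window held 2 CArG boxes, whose first bases lay 82 and 62 bases before the start at 46556162, and 1 short CRE motif. The Egr2 window held 1 CArG box, 72 bases before the start, and 2 short CRE motifs. The Nr4a1 window held no CArG box and 4 short CRE motifs. Neither motif was in the 250 bases before the starts of Ier3 and Ier5. Among 32851 start sites, 1.47% had a CArG box in those 250 bases and 17.8% had the short CRE motif. A match describes the letters only and is not a measured binding site.

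Most of the 8 have few exons in GENCODE M21. Egr1, Egr2, Egr3 and Ier3 have 2 exons and Ier2 and Ier5 have 1, counted in the transcript with the longest coding region, while Srf has 7 and Nr4a1 has 8. Of 10786 tested protein-coding genes, 7.03% have 1 or 2 exons, and the median is 9. Gene spans ran from 1240 bases (Ier3) to 20527 bases (Nr4a1), against a median of 23408 bases. The pentamer ATTTA, the core of AU-rich elements that shorten transcript life, occurred 8.16 times per kilobase of the 3′ untranslated region of Ier3 and 5.52 times per kilobase in Nr4a1. Only 1.76% and 5.38% of genes were at least as dense as these. Egr3 had 2.65 per kilobase, Egr2 2.5, Egr1 1.64, Srf 1.33 and Ier5 0.933, around the median of 1.26, and Ier2 had none.

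Egr1 encodes a zinc finger transcription factor that binds GC-rich promoter elements (ENSMUSG00000038418, GRCm38 chromosome 18, 34859823 to 34864984, plus strand, 4484 bases of gene model). It was at 0.600, 0.779 and 0.646 FPKM with nintedanib and at 2.94, 3.51 and 3.96 FPKM with radiation. With the combination it was at 0.744, 0.787 and 0.744 FPKM, and in control cells at 9.24, 8.00 and 9.13 FPKM. Every treated library lay below every control library, and the nintedanib and combination libraries overlapped each other but not the radiation libraries.

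The group means were 0.675 ± 0.0928 FPKM with nintedanib, 3.47 ± 0.507 FPKM with radiation, 0.758 ± 0.0250 FPKM with the combination and 8.79 ± 0.684 FPKM in control cells (SD, n = 3 each). In order, the level was lowest with nintedanib, then with the combination, then with radiation, then in control cells, and the first neighbours in this order did not differ beyond their spread. These values rest on 163, 826, 182 and 2016 fragments summed over the nintedanib, radiation, combination and control libraries. In bulk RNA, a lower level in every cell and the loss of transcript from a share of the cells cannot be told apart.

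**Figure D1:**
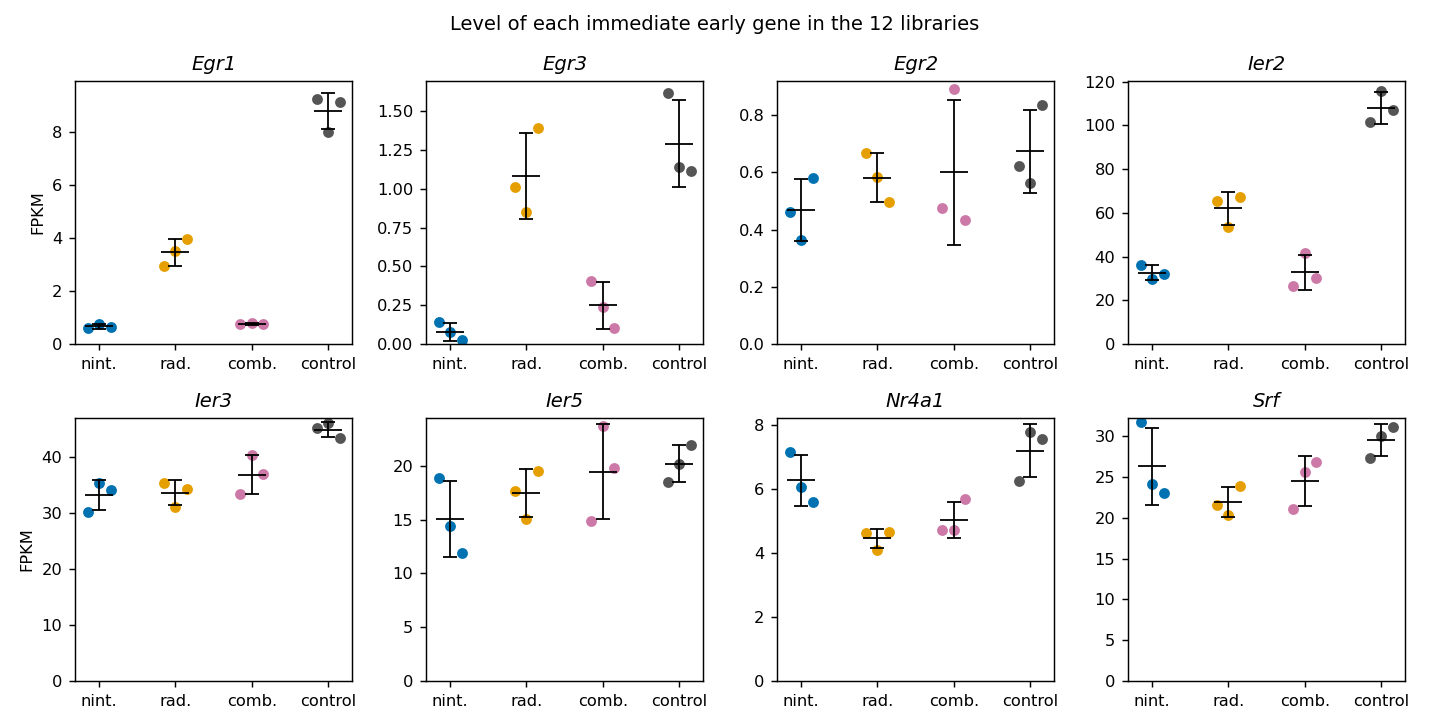
FPKM of the 8 genes in the 12 libraries, 1 panel a gene, with groups from left to right nintedanib (nint.), radiation (rad.), combination (comb.) and control. Points are libraries and bars are mean ± SD (n = 3); each vertical axis starts at 0. Egr1 and Ier2 are highest in the 3 control libraries, at 8.00 to 9.24 and 101 to 116 FPKM.

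As a ratio of means, Egr1 was 13.0-fold lower with nintedanib than in control cells, 2.53-fold lower with radiation and 11.6-fold lower with the combination. Among irradiated cells it was 4.57-fold lower with the combination than with radiation alone. Under the drug, the ratio of the combination to nintedanib alone was 1.12. On the log2(FPKM + 1) scale, which compresses low values, the changes were -2.55 (nintedanib), -1.14 (radiation) and -2.47 (combination) against control, each with an SE of 0.096. On recovered fragments (limma-voom) they were -3.67, -1.32 and -3.48.

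If the ratios of the single treatments multiplied, Egr1 would be at 0.266 FPKM in the combination, and it was observed at 0.758 FPKM, 2.85-fold more. Adding the single effects on the log2(FPKM + 1) scale gives an expectation of -0.235 FPKM, below what is possible, so on that scale a departure from additivity was fixed by the floor at 0. The departure itself, the interaction, was 1.21 on that scale (SE 0.136). Of 13012 tested genes, 63 others had an interaction at least as large, the median over all genes was 0.01, and 51.9% of genes were above 0.

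The observed combination level of each of the other genes also lay above the product of its single-treatment ratios. The quotient was 3.69 for Egr3, 1.75 for Ier2, 1.495 for Ier5, 1.48 for both Egr2 and Ier3, 1.30 for Nr4a1 and 1.25 for Srf. For Egr3 the additive expectation on the log2(FPKM + 1) scale was also below 0, at -0.0169 FPKM, and its quotient was 5.85 without nintedanib replicate 1 and 2.55 to 4.77 with any other library left out. All of these use the same control libraries, so they are not independent of each other. Interactions on the log2(FPKM + 1) scale were 0.78 for Ier2 (SE 0.210), 0.56 for Ier3 (SE 0.120), 0.55 for Ier5 (SE 0.251), 0.34 for Egr3 (SE 0.219), 0.32 for Nr4a1 (SE 0.147) and 0.32 for Srf (SE 0.175).

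**Figure D2:**
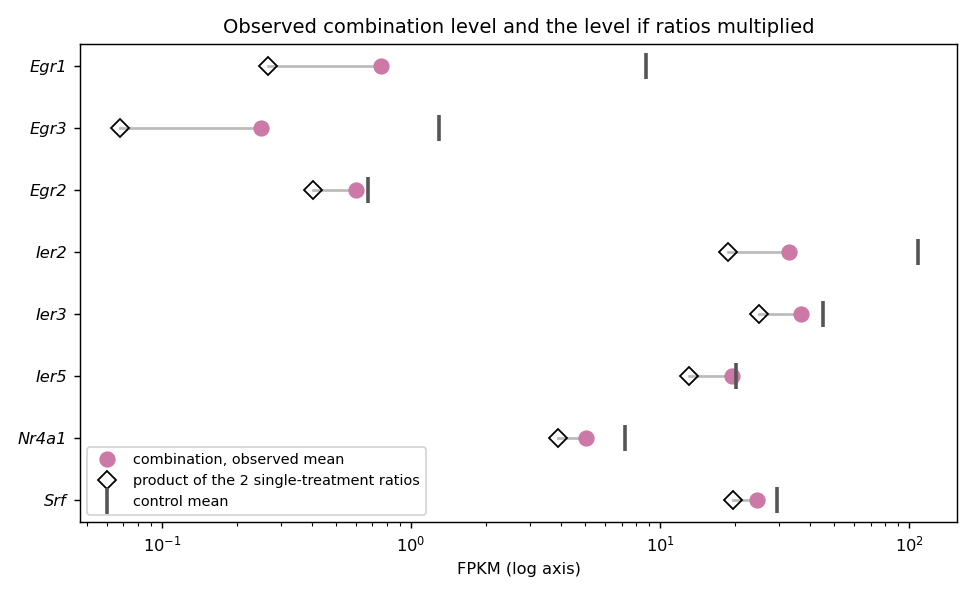
Mean FPKM of each gene in the combination (filled circles), the level expected if the nintedanib and radiation ratios to control multiplied (open diamonds), and the control mean (vertical ticks), on a log axis. For Egr1 the circle is at 0.758 FPKM, the diamond at 0.266 FPKM and the tick at 8.79 FPKM.

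The genes other than Egr1 were tested with limma on log2(FPKM + 1), across the 13012 genes that reached 1 FPKM in at least 3 libraries. Egr2 did not reach it in any library. Egr3 reached it only in control and radiation libraries, the groups where it was high, so it is left out of the counts here and described on its own. That left 5 genes to count. A gene is said to have risen or fallen where its Benjamini-Hochberg adjusted p over all tested genes was under 0.05. With nintedanib, 2 of the 5 fell against control (Ier2 and Ier3) and none rose, where 22% of all tested genes fell and 19.7% rose. With radiation, 4 fell (Nr4a1, Ier2, Ier3 and Srf) and none rose, where 9.9% of all tested genes fell and 8.04% rose. With the combination, 3 fell against control (Ier2, Nr4a1 and Ier3) and none rose, where 25% of all tested genes fell and 22.3% rose.

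Against radiation alone, 1 fell in the combination (Ier2) and none rose, where 17.3% of all tested genes fell and 17.2% rose. Against nintedanib alone, 0 of the 5 passed in the combination by limma or limma-voom, and 1, Nr4a1, did at an unadjusted p under 0.05, where 2.37% of all tested genes fell and 3.17% rose. The median change of the 5 was -0.42, -0.41 and -0.28 with nintedanib, radiation and the combination against control. Over all tested genes it was -0.02, -0.04 and -0.03. At an unadjusted p under 0.05 none of the 5 was higher in any of these comparisons. The comparisons with control use the same control libraries.

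**Figure D3:**
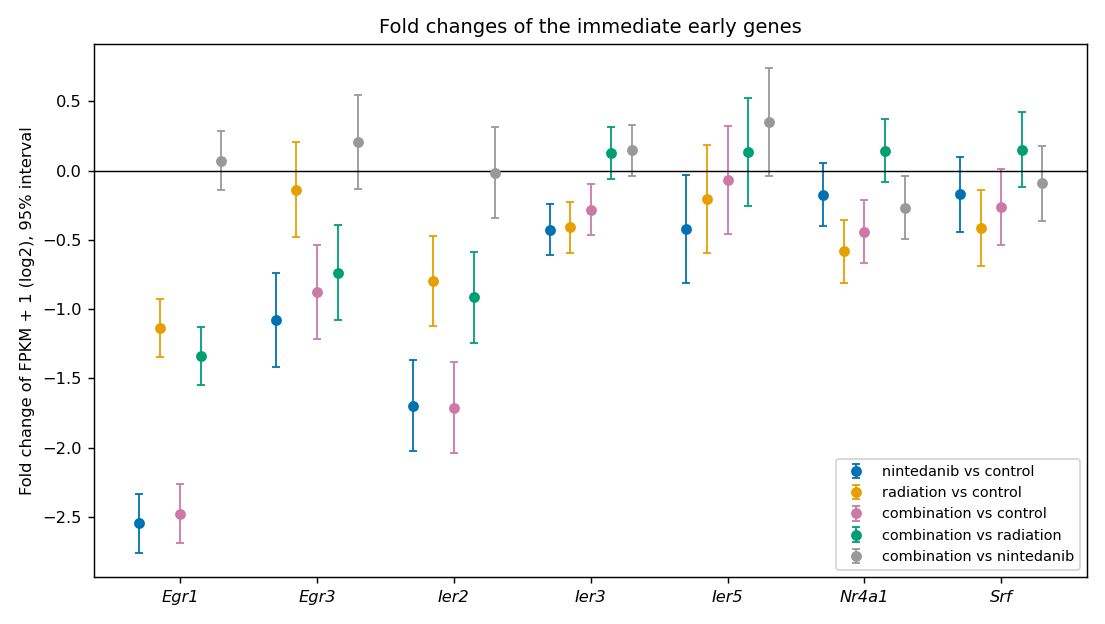
Fold change on the log2(FPKM + 1) scale with its 95% interval for the 7 tested genes in 5 comparisons, in the order nintedanib, radiation and combination against control, then combination against radiation and against nintedanib. Egr1 is a description. Ier2 lies at -1.70 and -1.71 for nintedanib and the combination against control, and at -0.01 for the combination against nintedanib.

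Egr3 encodes a relative of Egr1 with a nearly identical zinc finger domain (ENSMUSG00000033730, chromosome 14, 70077203 to 70082614, plus strand). It was at 0.140, 0.0767 and 0.0248 FPKM with nintedanib and at 1.01, 0.850 and 1.39 FPKM with radiation. It was at 0.404, 0.242 and 0.103 FPKM with the combination, against 1.61, 1.14 and 1.12 FPKM in control cells. Both groups with the drug lay below both groups without it, with no overlap, while the radiation and control libraries overlapped.

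Egr3 was at 0.0805 ± 0.0577 FPKM with nintedanib, against 1.29 ± 0.280 FPKM in control cells (SD, n = 3 each; log2 fold change -1.08, SE 0.155, limma adjusted p = 0.000228). Since it entered that test through the groups where it was high, it was also tested with no minimum level, where the adjusted p was 0.000358. The ratio of means was 16.03-fold, on 11, 6 and 2 fragments with nintedanib against 118, 87 and 85 in control cells. In the combination it was at 0.249 ± 0.151 FPKM, lower than in control cells (-0.87, adjusted p = 0.000768, and 0.00103 with no minimum) and than the 1.08 ± 0.276 FPKM of radiation alone (-0.74, adjusted p = 0.00366, and 0.00463 with no minimum). Because of its low level these folds depend on the scale: on recovered fragments they were -4.12, -2.48 and -2.25. For radiation against control the change was -0.14 (95% interval -0.48 to 0.20, adjusted p = 0.584).

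Egr2, the third relative and a regulator of myelination in Schwann cells, was low everywhere (ENSMUSG00000037868, chromosome 10, 67535475 to 67542188, plus strand). It was at 0.462, 0.365 and 0.579 FPKM with nintedanib, at 0.666, 0.583 and 0.496 FPKM with radiation and at 0.475, 0.891 and 0.433 FPKM with the combination, against 0.620, 0.561 and 0.835 FPKM in control cells. All 4 groups overlapped one another. Tested without a minimum, its changes were -0.19 to 0.11 and none passed (limma adjusted p 0.413 to 1). A difference was not detectable at this depth.

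Ier2 encodes a small nuclear protein induced by growth factors (ENSMUSG00000053560, chromosome 8, 84661331 to 84662852, minus strand). It was at 36.3, 29.8 and 32.1 FPKM with nintedanib, at 65.4, 53.5 and 67.4 FPKM with radiation and at 26.7, 41.7 and 30.1 FPKM with the combination, against 101, 116 and 107 FPKM in control cells. Its control level was the highest of the 8 genes. Like Egr1, it was lowest in both drug groups, which overlapped each other, and intermediate with radiation.

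Ier2 fell with nintedanib to 32.7 ± 3.29 FPKM, against 108 ± 7.21 FPKM in control cells (log2 fold change -1.70, SE 0.148, limma adjusted p = 7.04e-06). It fell with radiation to 62.1 ± 7.52 FPKM (-0.80, adjusted p = 0.00512) and with the combination to 32.9 ± 7.87 FPKM (-1.71, adjusted p = 5.18e-06), all SD, n = 3. The combination was also below radiation alone (-0.92, adjusted p = 0.000737). Between the combination and nintedanib the change was -0.01 (95% interval -0.34 to 0.31, adjusted p = 0.965).

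Ier3, also known as IEX-1, is a regulator of apoptosis and of ERK signalling (ENSMUSG00000003541, chromosome 17, 35821684 to 35822923, plus strand). It was at 30.2, 35.3 and 34.1 FPKM with nintedanib, at 35.3, 31.1 and 34.4 FPKM with radiation and at 33.3, 40.3 and 36.9 FPKM with the combination, against 45.3, 46.0 and 43.5 FPKM in control cells. The treated groups overlapped each other and all lay below control. The falls were small: -0.43 with nintedanib (SE 0.0848, adjusted p = 0.00199), -0.41 with radiation (adjusted p = 0.00831) and -0.28 with the combination (adjusted p = 0.0174). The fall with the combination did not pass when libraries were scaled to a common sum (adjusted p = 0.0682), without control replicate 2 (0.0526) or without combination replicate 1 (0.0685).

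Ier5, whose protein binds the heat shock factor HSF1, did not pass in any comparison (ENSMUSG00000056708, chromosome 1, 155096361 to 155099636, minus strand). It was at 18.9, 14.4 and 11.9 FPKM with nintedanib, at 17.7, 15.1 and 19.6 FPKM with radiation and at 14.9, 23.7 and 19.8 FPKM with the combination, against 18.5, 20.2 and 21.9 FPKM in control cells. The first nintedanib library lay within the control range and the other two below it. The change with nintedanib was -0.42 (SE 0.177, 95% interval -0.81 to -0.03, adjusted p = 0.0799). Without that first library it was -0.58 and passed (adjusted p = 0.0201), and it also passed without combination replicate 1 (adjusted p = 0.0472).

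Nr4a1 encodes the orphan nuclear receptor NUR77 (ENSMUSG00000023034, chromosome 15, 101254269 to 101274795, plus strand), whose window printed above had CRE motifs and no CArG box. It was at 7.16, 6.07 and 5.61 FPKM with nintedanib, at 4.62, 4.10 and 4.66 FPKM with radiation and at 4.71, 4.73 and 5.69 FPKM with the combination, against 6.25, 7.79 and 7.57 FPKM in control cells. Radiation gave the lowest 3 libraries, and nintedanib overlapped control.

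Nr4a1 fell with radiation to 4.46 ± 0.310 FPKM, against 7.20 ± 0.835 FPKM in control cells (SD, n = 3 each; -0.58, SE 0.104, limma adjusted p = 0.00392). It fell in the combination to 5.04 ± 0.560 FPKM (-0.44, adjusted p = 0.00465). With nintedanib alone the change was -0.17 (95% interval -0.40 to 0.05, adjusted p = 0.206). Its order of groups thus differed from that of Egr1, Egr3 and Ier2, with radiation lowest, although the combination did not pass against radiation (0.14, adjusted p = 0.317) or nintedanib (-0.27, adjusted p = 0.162). Of its family, Nr4a2 fell with radiation (-0.48, adjusted p = 0.00773) and was higher in the combination than with radiation alone (0.33, adjusted p = 0.0217), and Nr4a3 stayed at or below 0.618 FPKM.

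Srf, the factor that binds CArG boxes, has such boxes in its own promoter, as printed above (ENSMUSG00000015605, chromosome 17, 46548329 to 46556175, minus strand). It was at 31.7, 24.2 and 23.1 FPKM with nintedanib, at 21.6, 20.4 and 23.9 FPKM with radiation and at 21.1, 25.6 and 26.9 FPKM with the combination, against 27.4, 30.1 and 31.2 FPKM in control cells. The radiation and combination libraries lay below control, and the first nintedanib library was above all of the controls.

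Srf fell with radiation to 21.9 ± 1.81 FPKM, against 29.6 ± 1.94 FPKM in control cells (SD, n = 3 each; -0.41, SE 0.124, limma adjusted p = 0.0406). That call was lost in 10 of 20 alternatives. Adjusted p was 0.0575, 0.107 and 0.126 without control replicates 1, 2 and 3, 0.0972, 0.140 and 0.0516 without radiation replicates 1, 2 and 3, and 0.0518 without combination replicate 2. It was also lost without a minimum level (0.0920), with a common sum (0.0531) and with the replicate number as a block (0.0730). The change was -0.17 with nintedanib (adjusted p = 0.293) and -0.26 with the combination (adjusted p = 0.102). Without nintedanib replicate 1 these became -0.31 (adjusted p = 0.0419) and -0.26 (adjusted p = 0.0436).

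The 5 protein-coding genes with the most similar profile to Egr1 were Myc, Acot2, Ppp1r15a, Trib3 and Trim46. Likeness was measured over the 12 libraries as the root mean square difference in log2(FPKM + 1) after subtracting each gene's control mean. It was 0.226 for Myc, 0.337 for Acot2, 0.356 for Ppp1r15a, 0.386 for Trib3 and 0.388 for Trim46, among 10519 genes. The ranking rests on that scale, which compresses low values. On it the fall of Egr1 with nintedanib was -2.55, against -3.67 on recovered fragments. Myc, itself an early growth factor response gene, was at 38.4 ± 2.61 FPKM with nintedanib, 74.2 ± 5.37 FPKM with radiation and 29.8 ± 2.89 FPKM with the combination, against 176 ± 6.03 FPKM in control cells. Unlike those of Egr1, the Myc combination libraries all lay below the nintedanib libraries. Acot2, a mitochondrial acyl-CoA thioesterase, averaged 7.57, 31.5 and 7.34 FPKM in those treated groups, against 48.7 FPKM in control cells. Ppp1r15a, which encodes the stress phosphatase subunit GADD34, averaged 12.3, 34.3 and 14.2 FPKM, against 63.1 FPKM. The pseudokinase gene Trib3 averaged 44.1, 195 and 49.7 FPKM, against 313 FPKM. The AP-1 gene Fosl1 was ranked 6, Dusp6 14, Atf3 17 and Etv5 28, and Dusp1 was ranked 10438.

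Further immediate early genes were described from a list of 27. Of these, 25 were tested (Egr4 and Nr4a3 were too low), and with nintedanib 14 fell and 4 rose, with a median change of -0.37, where 22% of all tested genes fell and 19.7% rose. Atf3, a stress-induced repressor, fell to 14.1 ± 0.393 FPKM, against 51.0 ± 5.19 FPKM in control cells (-1.78). The polo-like kinase gene Plk2 (-1.19) and the EGFR inhibitor gene Errfi1 (-0.94) also fell. Dusp1, a phosphatase that inactivates MAP kinases, was the opposite case and rose to 128 ± 1.74 FPKM, against 40.8 ± 2.69 FPKM in control cells (1.63), and Csrnp1 (1.01), Bhlhe40 (0.77) and Gem (0.49) rose with it.

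With radiation, 10 of the 25 fell and 1, Gem, rose (median -0.24), where 9.9% of all tested genes fell and 8.04% rose. The number that fell was 7 to 11 with any 1 library left out. Gem did not pass without control replicate 1 or 2 or radiation replicate 1 or 2. Atf3 (-0.77), Plk3 (-0.75), Klf4 (-0.66) and Trib1 (-0.58) fell. With the combination 10 fell and 4 rose against control (median -0.23), where 25% of all tested genes fell and 22.3% rose. Those that rose were Dusp1 (1.13), Bhlhe40 (0.71), Csrnp1 (0.76) and Gem (0.67). Against radiation alone 6 fell and 6 rose in the combination (3 rose without radiation replicate 1), where 17.3% of all tested genes fell and 17.2% rose. Against nintedanib alone Dusp1 fell (-0.50) and Plk2 rose (0.26, adjusted p = 0.0460), where 2.37% of all tested genes fell and 3.17% rose. The Plk2 call was lost without any 1 control, nintedanib or radiation library or combination replicate 1 or 2 (adjusted p 0.0579 to 0.166). It was also lost without a minimum level (0.0587), with a common sum (0.141) and with a replicate block (0.0783).

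**Figure D4:**
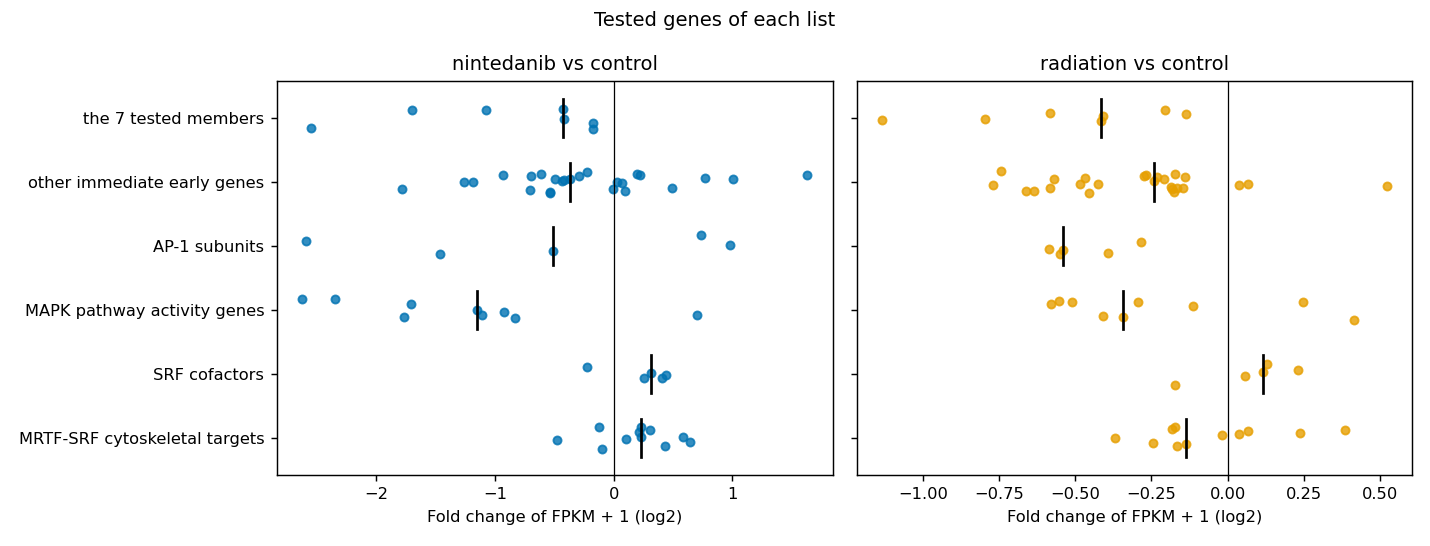
Fold change on the log2(FPKM + 1) scale of each tested gene in 6 lists, for nintedanib (left) and radiation (right) against control; horizontal axes differ. Points are genes and black bars are list medians. The MAPK pathway activity genes have medians of -1.15 and -0.34, and the SRF cofactors 0.31 and 0.11.

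The transcripts of a published set of MAPK pathway activity genes were described as well, and ERK activity itself was not measured. Of 10, 9 were tested (Epha4 was not), and with nintedanib 8 fell and 1 rose, with a median of -1.15. Over all tested genes 22% fell and 19.7% rose with nintedanib. The ETS factor genes Etv5 (-2.62) and Etv4 (-2.34), the Sprouty gene Spry4 (-1.77) and the ERK phosphatase gene Dusp6 (-1.71) fell most, while Dusp4 rose (0.70). With the combination 8 fell and 1, Dusp4, rose against control (median -1.39), where 25% of all tested genes fell and 22.3% rose. The number that rose there was 0 in 3 of the alternatives. Against radiation alone 8 fell and 1, again Dusp4, rose (median -1.02), where 17.3% of all tested genes fell and 17.2% rose. Against nintedanib 0 passed by limma or limma-voom, with 5 at an unadjusted p under 0.05, where 2.37% of all tested genes fell and 3.17% rose.

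With radiation 5 of those 9 fell and 1 rose (median -0.34), where 9.9% of all tested genes fell and 8.04% rose. Dusp6 (-0.58) and Spry2 (-0.55) were among those that fell. The number that fell was 3 with a common sum, without control replicate 1 or 3, and without radiation replicate 1 or 2. Etv4 rose with radiation (0.42), though not without control replicate 3 (adjusted p = 0.0503). Etv5 was at 19.2, 16.9 and 21.2 FPKM with radiation, against 16.1, 16.1 and 15.5 FPKM in control cells (0.25, adjusted p = 0.0921).

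Of the kinase genes on the path from ERK to SRF and EGR, 8 of 9 were tested (Rps6ka5 was not). With nintedanib the RSK gene Rps6ka2 fell (-0.97) and its relative Rps6ka1 rose (0.68). Mapk3, which encodes ERK1, also rose (0.21, adjusted p = 0.0479). That call was lost without a minimum level, with a replicate block, or without any 1 of the control or radiation libraries. It was lost too without nintedanib replicate 1 or 2 or combination replicate 3 (adjusted p 0.0584 to 0.135 over all of these). With radiation Mapk3 fell (-0.30, adjusted p = 0.0238), but not with a common sum or without control replicate 2 or 3 or radiation replicate 2 or 3 (adjusted p 0.0573 to 0.0876). With the combination Rps6ka2 (-0.87) and Rps6ka3 (-0.31) fell and Rps6ka1 (0.52) and Map2k1 (0.19) rose against control. The Rps6ka3 call was lost with a common sum or a replicate block, or without a minimum level. It was also lost without control replicate 1 or 3 or combination replicate 2 or 3 (adjusted p 0.0565 to 0.177 over all of these). The number that rose was 1 without a minimum level, with a replicate block, or without any 1 control or radiation library or combination replicate 2 or 3. Over all tested genes 22.3% rose and 25% fell in the combination against control.

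Genes of SRF's partners were mostly higher with nintedanib. Of 6 cofactor genes 5 were tested (Myocd was not), and 4 rose, where 19.7% of all tested genes rose and 22% fell. They were the MRTF genes Mkl2 (0.44) and Mkl1 (0.40) and the ternary complex factor genes Elk3 (0.26) and Elk1 (0.31). Elk1 lost its call without a minimum level, or without any 1 of control replicates 1 to 3 or nintedanib replicates 1 and 2 (adjusted p 0.0531 to 0.102). With radiation 0 passed by limma or limma-voom, and 1 did at an unadjusted p under 0.05, where 9.9% of all tested genes fell and 8.04% rose. In the combination Mkl1 (0.56), Elk1 (0.36) and Mkl2 (0.27) rose and Elk4 (-0.39) fell against control, where 22.3% of all tested genes rose and 25% fell. Mkl1 alone rose without combination replicate 1. The Mkl2 call was also lost without a minimum level or without control replicate 2 or 3 (adjusted p 0.0591 to 0.0908).

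Of the cytoskeletal genes that SRF drives with the MRTF cofactors, 11 of 14 were tested. With nintedanib 5 rose and 1 fell, where 19.7% of all tested genes rose and 22% fell. Cnn2 (0.65) and Actg1 (0.58) led the 5 that rose, and Flna (-0.48) fell, and without control replicate 2 the number that rose was 3. In the combination 5 rose against control, led by the smooth muscle actin gene Acta2 (1.15), and Flna fell again (-0.56). Over all tested genes 22.3% rose and 25% fell there. Acta2 also rose against nintedanib alone (0.91, adjusted p = 0.00435), where 3.17% of all tested genes rose and 2.37% fell. Against radiation alone 7 rose and 1 fell in the combination (median 0.36), where 17.2% of all tested genes rose and 17.3% fell. The number that rose there was 5 to 8 with any 1 library left out. With radiation against control Vcl rose (0.38) and Zyx fell (-0.37), where 8.04% of all tested genes rose and 9.9% fell. The Vcl call was lost without a minimum level and with a replicate block. It was also lost without control replicate 2 or 3, nintedanib replicate 2, radiation replicate 2 or 3, or combination replicate 2 or 3 (adjusted p 0.0535 to 0.159 over all of these). The Zyx call was lost without a minimum level, with a replicate block, or without any 1 control library or radiation replicate 1 or 2 (adjusted p 0.0621 to 0.109).

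Of 14 genes listed as EGR1 targets, 13 were tested (Icam1 was not), and with nintedanib 4 fell and 3 rose, with a median of -0.15. Over all tested genes 22% fell and 19.7% rose. The growth factor gene Gdf15 (-1.62) and Trp53 (-0.82), the gene of p53, fell, and the tissue factor gene F3 (1.63) and the prostaglandin synthase gene Ptges (0.66) rose. With radiation Ptges (0.27) rose. Cd44 also rose (0.23, adjusted p = 0.0381), but not without a minimum level, control replicate 2 or 3, or any 1 radiation library (adjusted p 0.0539 to 0.138). With the combination 5 fell and 2 rose against control, where 25% and 22.3% of all tested genes did. Of Nab1 and Nab2, whose proteins bind and repress EGR factors, 0 passed by limma in the 5 comparisons. Nab1 was higher in the combination than in control cells at an unadjusted p under 0.05 and passed there by limma-voom. Nab2, itself an EGR target, was at 10.5, 9.98 and 6.08 FPKM with nintedanib, against 10.8, 11.5 and 10.6 FPKM in control cells.

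Among the AP-1 genes, which respond to the same signals, Fos and Fosb were near the floor, at most 0.769 and 1.03 FPKM in any library. The other 5 were tested, and with nintedanib 3 fell and 2 rose, where 22% of all tested genes fell and 19.7% rose. Fosl1, whose protein FRA-1 accumulates under sustained ERK activity, was at 20.1, 13.2 and 10.4 FPKM with nintedanib, against 85.9, 93.4 and 90.2 FPKM in control cells (-2.59), and Junb (-1.46) and Jun (-0.51) also fell. Fosl2 (0.98) and Jund (0.73) rose. With radiation Fosl2 (-0.59) fell, and Jun fell too (-0.54), a call lost without a minimum level, control replicate 2 or 3, or radiation replicate 1 or 2. Over all tested genes 9.9% fell and 8.04% rose with radiation. With the combination 3 fell and 2 rose against control, where 25% of all tested genes fell and 22.3% rose. Against radiation alone 2 fell and 2 rose, where 17.3% of all tested genes fell and 17.2% rose. The fall of Junb there was lost in 12 of 20 alternatives. Against nintedanib alone Fosl2 fell and Junb rose, where 2.37% of all tested genes fell and 3.17% rose.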

How the data were processed

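RNA was sequenced from 12 MC38 cultures, 3 in each of 4 groups taken from the sample titles. Per the labels' protocols, libraries were made from total RNA with a SMARTER mRNA kit. The authors deposited 1 table of FPKM values with gene models, per the file headers. Per the submitters' processing notes the build was GRCm38, also called mm10. The strand setting, aligner, counter and annotation version were not given in the sources used here. Without a known strand setting, reads of overlapping antisense genes cannot be told apart.

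Depth was recovered from the values: in every library 100% of nonzero values were whole multiples of 1 fragment within a tolerance of 0.01, and 1 FPKM per kilobase stood for 16.4 to 18.7 fragments. Replicates differed by more than sampling noise (chi-square per gene 4.30 to 30.2). Counting error is all that these totals describe. The limma p-values instead set differences between groups against the spread between cultures.

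Tests used limma 3.58.1 in R 4.3.3 on log2(FPKM + 1) (two-sided, intensity trend), with all 12 libraries in 1 fit, 8 residual degrees of freedom and genes at 1 FPKM or more in 3 libraries. Benjamini-Hochberg adjustment ran over the 13012 genes at 0.05. The fit was tested on simulated data. The genes described and the lists were chosen with earlier results of these data known. Named from the lists were up to 4 passing genes with the smallest adjusted p per comparison, every gene of lists of 9 or fewer, and the 5 genes most like Egr1. Where 5 or fewer genes passed in a direction they were named after their values were seen, as were Nr4a2, Fosl1 and other ranked or low genes given with a rank or level. Alternatives were pseudocounts of 0.1 and 0.01, no minimum, a minimum of 5 FPKM, protein-coding genes only, scaling to a common sum, limma-voom on recovered fragments, a replicate block and each library left out. Their use on the lists, the counts without Egr3 and the quotients with a library left out were chosen after seeing the data. Some genes that the naming rule would give are left out here.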

Additional observations from a re-analysis of the deposited data

Results flagged for a closer look

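A search of all the listed genes gave 3, from the other immediate early and AP-1 genes, with this pattern. Every combination library lay above every nintedanib library, and every radiation library lay below every control library. The share of all tested genes with this pattern was not counted, so the number is a description only. Mcl1 passed in neither of these comparisons, nor did Junb and Plk2 in that of radiation with control. The call of Junb in the combination against nintedanib was lost without combination replicate 2 (adjusted p = 0.0768), and that of Plk2 was lost as given above. Junb was at 27.5, 36.7 and 29.0 FPKM in the combination, against 22.0, 18.7 and 14.1 FPKM with nintedanib alone. It was at 42.9, 36.6 and 46.9 FPKM with radiation alone, against 50.8, 54.0 and 49.3 FPKM in control cells. The difference of the radiation effects was 1.03 for Junb on the log2(FPKM + 1) scale (SE 0.216), and it did not pass in the limma interaction test (adjusted p = 0.159). For Plk2 the difference was 0.447 (adjusted p = 0.169) and for Mcl1 0.306 (adjusted p = 0.302), and neither passed. Plk2 averaged 56.3 FPKM in the combination, against 46.6 FPKM with nintedanib, and 94.5 FPKM with radiation, against 107 FPKM in control cells. Mcl1 averaged 101 FPKM in the combination, against 90.8 FPKM with nintedanib, and 100.2 FPKM with radiation, against 111 FPKM in control cells.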

How the results depend on the processing

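Of 595 values of the tested genes under the alternatives, 571 kept their direction and their side of the threshold, 13 lost a call, 4 gained one and 7 changed sign. All 7 were small, uncalled changes when 1 library was left out. For Ier2 in the combination against nintedanib the change was 0.0596 without nintedanib replicate 1, 0.117 without combination replicate 1 and 0.0336 without combination replicate 3 (range -0.1949 to 0.1173). Ier5 was at 0.0999 against control without combination replicate 1 (range -0.2171 to 0.0999) and at -0.0123 against radiation without combination replicate 2 (range -0.0123 to 0.3047). Srf against nintedanib was at 0.0442 without nintedanib replicate 1 and 0.00945 without combination replicate 1 (range -0.1766 to 0.0442).

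The interaction of Egr1 was 1.477 and 1.52 with pseudocounts of 0.1 and 0.01 and 1.504 by limma-voom, and 1.12 to 1.284 with 1 library left out. A common sum moved the median interaction of all genes by -0.12, and that of Egr1 was then 1.10. With Egr3 counted and 1 library left out, 3 to 5 genes passed for nintedanib against control (5 without nintedanib replicate 1), 3 to 4 for radiation and 3 to 5 for the combination against control, 2 for the combination against radiation and 0 against nintedanib. With a minimum of 5 FPKM the combination against radiation had 1, since Egr3 was no longer tested. Egr3 entered these counts through control and radiation libraries, where it was high. The counts that include it therefore cannot be set against the shares of all tested genes. Tested by limma with no minimum level, Egr3 still fell with nintedanib (adjusted p = 0.000358) and the combination (0.00103) against control. It also fell in the combination against radiation (0.00463).

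The replicate numbers did not pair the libraries: deviations of same-numbered libraries correlated at -0.298 to 0.202 over 18 pairs, 3 of them over 0.1, and 3 of 12 libraries were closest to their own number. With the replicate number as a block the Egr1 interaction was 1.207, and of the member calls the Srf call for radiation was lost (adjusted p = 0.0730). Depth limited Egr2 and Egr3, which rest on few fragments.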
